A study of Mus musculus with 6 samples.

Results

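The genes described here are those of the oxygen-sensing pathway around the hypoxia-inducible factors (HIF). They are the alpha subunit genes Hif1a, Epas1 and Hif3a, the partner subunit genes Arnt and Arnt2, the prolyl hydroxylase genes Egln1, Egln2 and Egln3, the asparaginyl hydroxylase gene Hif1an, and Vhl. They were chosen by gene symbol, and all 10 were found among the 22173 genes listed in each library's file. Expression was measured by RNA sequencing of whole retina from wild-type C57BL/6J mouse pups at postnatal day 17. The Control group is 3 libraries from pups kept in room air from day 7 to day 17. The oxygen-induced retinopathy (OIR) group is 3 libraries from pups that breathed 75% oxygen from day 7 to day 12 and room air from then to day 17. The labels name no separate animals or pools behind the libraries, so p-values measure the spread between these libraries, which may be technical. In this model the high oxygen stops and reverses retinal vessel growth, and the underperfused retina is hypoxic after the return to room air.

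A HIF is a pair of an alpha subunit and an ARNT subunit that binds DNA at hypoxia response elements. In the presence of oxygen the prolyl hydroxylases (EGLN proteins, also called PHD) modify the alpha subunit, the VHL ubiquitin ligase recognises the modified form, and the alpha subunit is degraded. HIF1AN (also called FIH) adds a hydroxyl group to an asparagine of the alpha subunit and blocks its coactivators. Most of this control acts on protein, which was not measured, and the values below are RNA levels. EGLN1 and EGLN3 are themselves known HIF target genes, so their RNA is part of a feedback loop, while EGLN2 is generally not counted as one.

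The retinal identity of the tissue was checked against marker genes. RPKM is the read count scaled to gene length and to library size. The 10 listed rod photoreceptor markers summed to 14404 to 17396 RPKM per Control library and 17229 to 18047 RPKM per OIR library. The 10 listed markers of Müller glia, cells that span the retinal layers, summed to 2448 to 2643 and 2277 to 2469 RPKM. One Control library and one OIR library stood apart by RNA of the eye lens. In Control 3 the 23 listed lens genes accounted for 6.40% of all reads, in OIR 2 for 0.555%, and elsewhere for 0.0150% to 0.0584%. In Control 3, 8 of the 10 genes had their lowest Control value, as did 61.1% of all tested genes. Values without these libraries are therefore given where a call rests on them. The recovered depth was 35615501 to 38025623 reads per library.

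The promoters of the 3 prolyl hydroxylase genes are shown first, since the largest difference and one of the smallest were found among these paralogs. RefSeq promoter windows (build GRCm38.p6, 250 bases before to 50 bases after the transcription start, on the gene's strand) were available for 9 of the 10 genes. Epas1 was not among them. The core of the hypoxia response element was searched as ACGTG and GCGTG on either strand, and matches are in capitals in the 5′ to 3′ sequences. The palindrome CACGTG, an E-box, holds ACGTG on each strand and counts as 2 overlapping matches. The windows are chr12:54203825-54204124 (minus strand) for Egln3, chr8:124949205-124949504 (minus strand) for Egln1 and chr7:27166753-27167052 (minus strand) for the upstream start of Egln2.
Egln3: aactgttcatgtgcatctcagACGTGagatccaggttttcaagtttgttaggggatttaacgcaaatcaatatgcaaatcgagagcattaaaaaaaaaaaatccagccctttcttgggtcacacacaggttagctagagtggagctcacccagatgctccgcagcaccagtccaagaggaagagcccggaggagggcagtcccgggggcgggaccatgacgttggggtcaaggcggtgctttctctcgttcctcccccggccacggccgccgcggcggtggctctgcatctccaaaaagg
Egln1: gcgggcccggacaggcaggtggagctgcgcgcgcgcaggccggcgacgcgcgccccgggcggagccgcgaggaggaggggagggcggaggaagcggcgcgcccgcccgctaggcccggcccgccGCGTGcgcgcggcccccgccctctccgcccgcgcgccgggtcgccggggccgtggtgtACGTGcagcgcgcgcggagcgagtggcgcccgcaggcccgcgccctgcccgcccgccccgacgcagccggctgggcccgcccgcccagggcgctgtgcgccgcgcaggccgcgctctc
Egln2: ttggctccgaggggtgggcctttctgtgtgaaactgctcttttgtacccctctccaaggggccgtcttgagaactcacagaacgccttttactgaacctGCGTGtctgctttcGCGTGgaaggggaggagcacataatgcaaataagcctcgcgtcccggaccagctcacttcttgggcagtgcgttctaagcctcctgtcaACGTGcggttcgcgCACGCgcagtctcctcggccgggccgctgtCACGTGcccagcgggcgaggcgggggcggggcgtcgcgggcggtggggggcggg

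Counted from 1 at the 5′ end, the Egln3 window held ACGTG at position 22 and no GCGTG. The Egln1 window held ACGTG at position 183 and GCGTG at position 125, in sequence of 86.0% G and C. In the Egln2 window there were 3 matches to ACGTG, 2 of them in a CACGTG palindrome at positions 247 and 248, and 3 matches to GCGTG. The second start of Egln2 had 1 GCGTG. Hif1a had 3 matches to ACGTG, Arnt 1 and Hif3a 2 matches to GCGTG, and the windows of Vhl, Arnt2 and Hif1an had neither. Across all 32851 windows of this length, 19.6% held ACGTG and 43.8% held either sequence. A match describes the letters of the window and does not show binding. The window with the most matches belonged to Egln2, whose RNA did not pass the test, and a link between matches and RNA levels was not tested.

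All 10 genes reached the minimum for testing, an RPKM of at least 1 in at least 3 libraries, as did 12112 genes in all. OIR was compared with Control with limma on log2(RPKM + 1), with Benjamini-Hochberg adjustment over all 12112 genes and a threshold of 0.05. Higher in OIR were 4 of the 10, Egln3, Egln1, Epas1 and Vhl, and none was lower. By the same test 18.8% of all tested genes were called, 11.6% higher and 7.22% lower. At an unadjusted limma p under 0.05 there were 5 of the 10, the fifth being Hif1a, against 4122 of all 12112 tested genes. The median log2 fold change was 0.15 over the 10 genes and 0.03 over all tested genes. The OIR values lay entirely above the Control values in the same 4 genes, where 23.6% of all tested genes had OIR above Control without overlap and 15.0% had it below. The plot of each library's values shows which groups overlap.

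**Figure D1:**
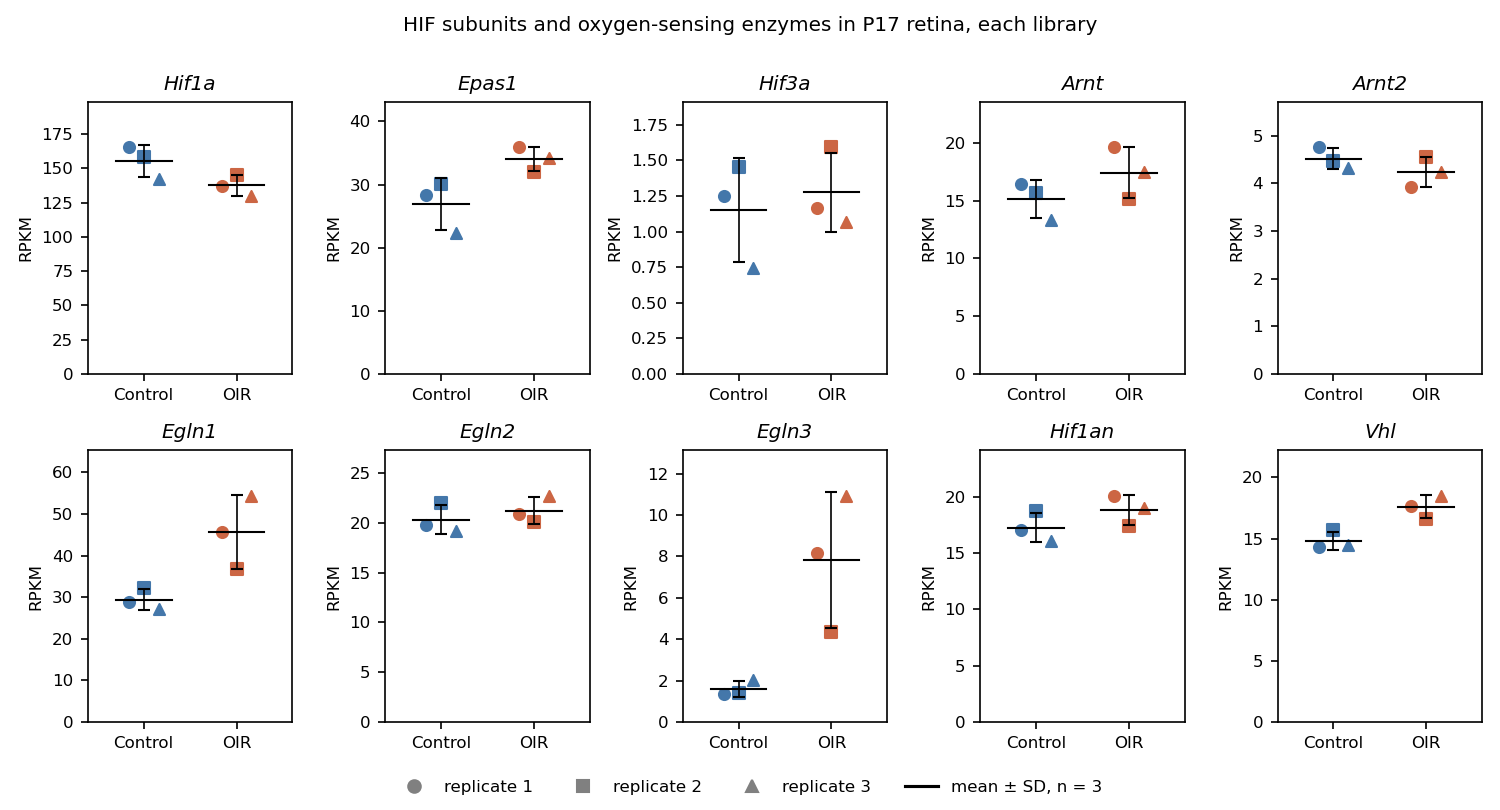
RPKM of the 10 genes in each library, with a separate axis from 0 for each gene, Control in blue and OIR in orange, marker shape for the replicate number, and the mean with its SD (n = 3) in black. Groups are apart in Epas1, Egln1, Egln3 and Vhl, and Control 3 is the lowest Control library for 8 of the 10 genes.

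Among the alpha subunits, Hif1a dominated. This gene encodes HIF-1alpha, the subunit present in most cell types. Its 3 Control libraries held 165.3, 158.5 and 142.1 RPKM, in the order of their numbers, and its 3 OIR libraries 137.3, 145.5 and 129.8 RPKM. The same order is used for every gene. Control 1 and Control 2 were above every OIR library, and the groups overlapped through Control 3, which was below OIR 2. The group means were 155.3 ± 11.9 and 137.6 ± 7.84 RPKM (SD, n = 3 each), a ratio of 0.886. OIR minus Control was -0.17 on the log2 scale (standard error 0.0769), with a 95% interval from -0.34 to -0.00285 and a limma adjusted p of 0.141, so the difference did not pass. Without Control 3 the adjusted p was 0.0390 at a log2 fold change of -0.23, and without both Control 3 and OIR 2 it was 0.00532 at -0.28. Over the 15 alternatives the adjusted p ran from 0.00532 to 0.409, and the direction was lower in each.

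Epas1 encodes HIF-2alpha, an alpha subunit known for its role in endothelial cells and some glia. Its level was 28.4, 30.1 and 22.3 RPKM in Control 1, Control 2 and Control 3 and 35.9, 32.1 and 34.1 RPKM in OIR 1, OIR 2 and OIR 3. Each OIR library was above each Control library, with the smallest gap between Control 2 and OIR 2. Epas1 rose from 26.9 ± 4.10 to 34.0 ± 1.91 RPKM, by 0.34 on the log2 scale (standard error 0.102, limma adjusted p 0.0453). The call ended without Control 1, Control 3, OIR 1 or OIR 3, at adjusted p of 0.0847, 0.0568, 0.165 and 0.114, and with no filter on low values, at 0.102. Without Control 3 the log2 fold change was 0.21, and without both lens-rich libraries it was 0.25 with an adjusted p of 0.0121. The range over the alternatives was 0.0121 to 0.165. Of 14 tested endothelial markers, 13 were higher in OIR, where 11.6% of all tested genes were. The summed level of all 15 listed was 68.8 to 73.1 RPKM across the Control libraries against 125.0 to 137.2 RPKM across the OIR libraries. All 6 tested pericyte markers were higher, and the 8 listed summed to 26.8 to 29.9 RPKM per Control library against 54.4 to 69.9 RPKM per OIR library. No marker of either list was at 0 in all libraries. In whole tissue, fewer or more cells of a type and less or more RNA per cell cannot be told apart, and the part of these cells in the Epas1 value was not tested.

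Hif3a encodes an alpha subunit whose shorter forms can inhibit HIF. It had the lowest mean level of the 10 genes in each group. Its values were 1.25, 1.45 and 0.744 RPKM in the 3 Control libraries and 1.17, 1.59 and 1.07 RPKM in the 3 OIR libraries, from 195 to 429 reads. The lowest value was in Control 3 and the highest in OIR 2, and the groups overlapped. The log2 fold change was 0.09 with a 95% interval from -0.21 to 0.39 and a limma adjusted p of 0.682. It was -0.05 without Control 3, -0.01 without OIR 2 and -0.15 without both, with adjusted p of 0.781, 0.979 and 0.292, so even its direction rested on these libraries.

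RPKM is scaled to gene length, so levels of different genes can be set beside each other within a library. Hif1a made up 83.4% to 86.0% of the summed RPKM of the 3 alpha subunits in Control and 78.7% to 81.2% in OIR. Epas1 made up 13.5% to 15.9% in Control and 17.9% to 20.7% in OIR, without overlap. The sum itself was 183.4 ± 15.97 RPKM against 172.9 ± 7.19 RPKM, so the groups differed by less than the SD of the Control libraries. The ratio of Epas1 to Hif1a was 0.172, 0.190 and 0.157 in the Control libraries and 0.261, 0.220 and 0.263 in the OIR libraries. The scaling to library size cancels in this ratio. Its log2 difference was 0.52, with a two-sided exact permutation p of 0.10, the smallest that 3 against 3 libraries can give, and 0.133 after adjustment over the 4 ratios tested. Leaving out single libraries gave log2 differences from 0.45 to 0.60.

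**Figure D2:**
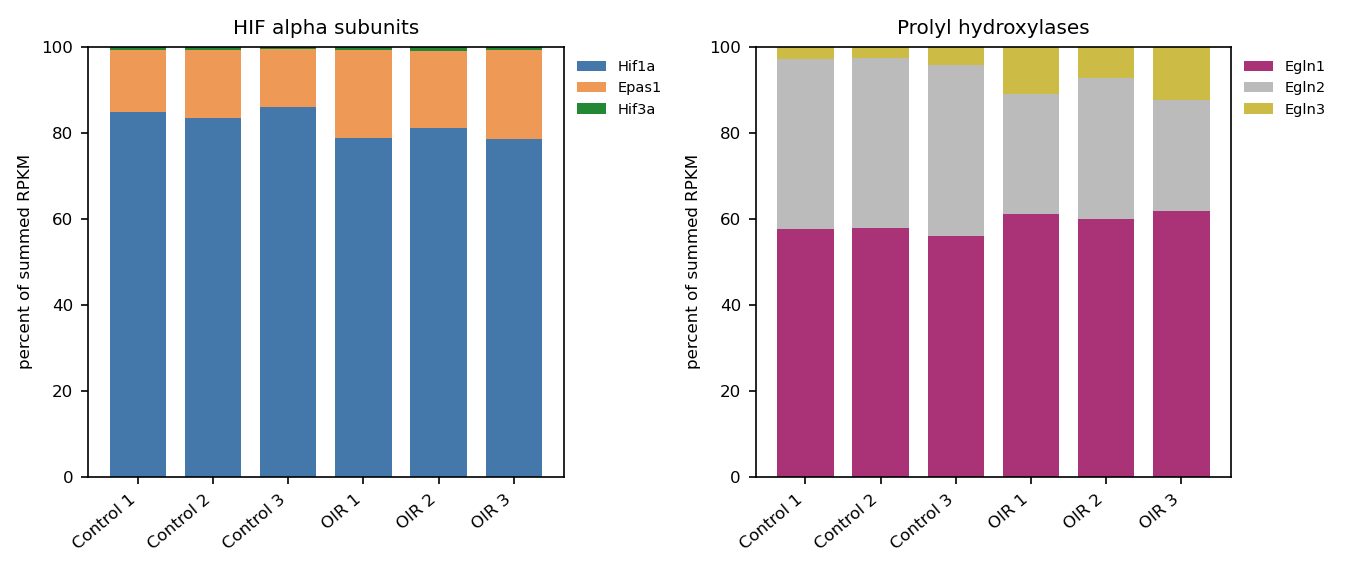
Share of each gene in the summed RPKM of the alpha subunits (left) and of the prolyl hydroxylases (right), in percent, one stacked bar per library. In OIR the Epas1 share was 17.9% to 20.7% against 13.5% to 15.9% in Control, and the Egln3 share was 7.15% to 12.4% against 2.56% to 4.20%.

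The partner subunit genes did not pass the test. Arnt encodes the broadly expressed partner also called HIF-1beta. It was at 16.5, 15.7 and 13.3 RPKM in the Control libraries and at 19.6, 15.2 and 17.5 RPKM in the OIR libraries. OIR 2 lay below Control 1 and Control 2, and the other OIR libraries lay above every Control library. The log2 fold change was 0.19 with a 95% interval from -0.04 to 0.41 and a limma adjusted p of 0.228. Leaving out single libraries gave 0.10 to 0.28, the lowest without OIR 1 or Control 3 (adjusted p 0.607 and 0.492) and the highest without OIR 2 (adjusted p 0.0515). Arnt2 encodes the partner most known from neurons. Its Control libraries held 4.76, 4.48 and 4.32 RPKM and its OIR libraries 3.93, 4.56 and 4.25 RPKM, a log2 fold change of -0.07 with an interval from -0.25 to 0.10 and an adjusted p of 0.561. The groups overlapped, with OIR 1 the lowest. Arnt exceeded Arnt2 by a ratio of 3.09 to 3.50 in Control and 3.33 to 4.98 in OIR. The ratio of Arnt2 to Arnt differed between the groups by -0.29 on the log2 scale, with a two-sided exact permutation p of 0.30 (0.30 adjusted over the 4 ratios). This difference was -0.15 without OIR 1 and -0.44 without OIR 2.

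The largest change among the 10 genes was that of a prolyl hydroxylase gene. Egln3, which encodes PHD3, stood at 1.35, 1.42 and 2.03 RPKM in the Control libraries and at 8.19, 4.37 and 10.9 RPKM in the OIR libraries. Every OIR library was above every Control library, and the OIR libraries spread widely, with a coefficient of variation of 42.1%. The means were 1.599 ± 0.374 and 7.83 ± 3.30 RPKM, a ratio of 4.90, and the reads behind them were 154 to 222 per Control library and 492 to 1279 per OIR library. Egln3 rose by 1.70 on the log2 scale (standard error 0.322, limma adjusted p 0.0261). Among the 12112 genes, 28 had a larger positive log2 fold change. The call depended on single libraries. When Control 1, Control 2 or OIR 1 was left out, the adjusted p became 0.107, 0.0994 or 0.120, although the log2 fold change remained 1.63, 1.65 or 1.63. By limma-voom on the recovered reads the adjusted p was 0.0621. Without OIR 2 the adjusted p was 3.66e-06 at a log2 fold change of 2.02. Over all alternatives the log2 fold change ran from 1.44 to 2.23.

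Egln1 encodes PHD2, the main oxygen sensor acting on HIF-1alpha in most tissues. It was at 28.9, 32.2 and 27.1 RPKM in the Control libraries and at 45.7, 36.7 and 54.4 RPKM in the OIR libraries. As for Egln3, the groups were apart and OIR 2 was the lowest and OIR 3 the highest OIR library. Egln1 rose from 29.4 ± 2.61 to 45.6 ± 8.85 RPKM, a ratio of 1.55, or 0.60 on the log2 scale (standard error 0.134, limma adjusted p 0.0206). Leaving out Control 1, Control 3 or OIR 1 took the adjusted p to 0.0831, 0.0638 or 0.0953, while the log2 fold change stayed between 0.47 and 0.75 over all alternatives.

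Egln2 encodes PHD1. It was at 19.8, 21.9 and 19.1 RPKM in Control and 20.9, 20.02 and 22.7 RPKM in OIR, with overlapping groups. Its log2 fold change was 0.06, with a 95% interval from -0.10 to 0.23 and a limma adjusted p of 0.606. The interval of Egln2 ended below the lower bound of Egln1, which was 0.29, although the difference between the genes was not itself tested.

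The make-up of the prolyl hydroxylase RNA differed between the groups. The sum of Egln1, Egln2 and Egln3 was 50.1, 55.6 and 48.2 RPKM in the Control libraries and 74.8, 61.1 and 88.1 RPKM in the OIR libraries. Egln2 held 39.5% to 39.7% of that sum in every Control library and 25.8% to 32.8% in OIR. Egln3 held 2.69%, 2.56% and 4.20% in the Control libraries and 10.9%, 7.15% and 12.4% in the OIR libraries. The log2 difference of the Egln3 share was 1.69, with a two-sided exact permutation p of 0.10 (0.133 adjusted over the 4 ratios), the smallest unadjusted p possible. Leaving out single libraries gave 1.53 to 1.93. Egln1 was the most abundant of the 3 in both groups, at 56.1% to 58.0% in Control and 60.1% to 61.8% in OIR, without overlap.

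Hif1an, the asparaginyl hydroxylase gene, was at 16.998, 18.7 and 16.1 RPKM in Control and 20.1, 17.4 and 19.0 RPKM in OIR. OIR 2 lay below Control 2, and the other OIR libraries lay above every Control library. The log2 fold change was 0.12 with a 95% interval from -0.05 to 0.29 and a limma adjusted p of 0.313.

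Vhl encodes the subunit of the ubiquitin ligase that recognises hydroxylated alpha subunits. It was at 14.3, 15.7 and 14.5 RPKM in the Control libraries and at 17.6, 16.6 and 18.5 RPKM in the OIR libraries. The groups were apart, by the narrow gap between Control 2 and OIR 2. Vhl rose from 14.8 ± 0.749 to 17.6 ± 0.942 RPKM, by 0.23 on the log2 scale (standard error 0.0703, limma adjusted p 0.0429). This call was the least stable of the 4. It ended under 8 of the 15 alternatives, among them upper-quartile scaling at 0.0536, no filter at 0.0636 and leaving out any one of Control 1, Control 2, Control 3, OIR 1 or OIR 3, at 0.0559 to 0.177. The log2 fold change stayed between 0.19 and 0.27. The level of Vhl relative to the summed alpha subunits was 7.35%, 8.25% and 8.76% in Control and 10.1%, 9.28% and 11.2% in OIR. This ratio had a log2 difference of 0.33 and a two-sided exact permutation p of 0.10 (0.133 adjusted over the 4 ratios).

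**Figure D3:**
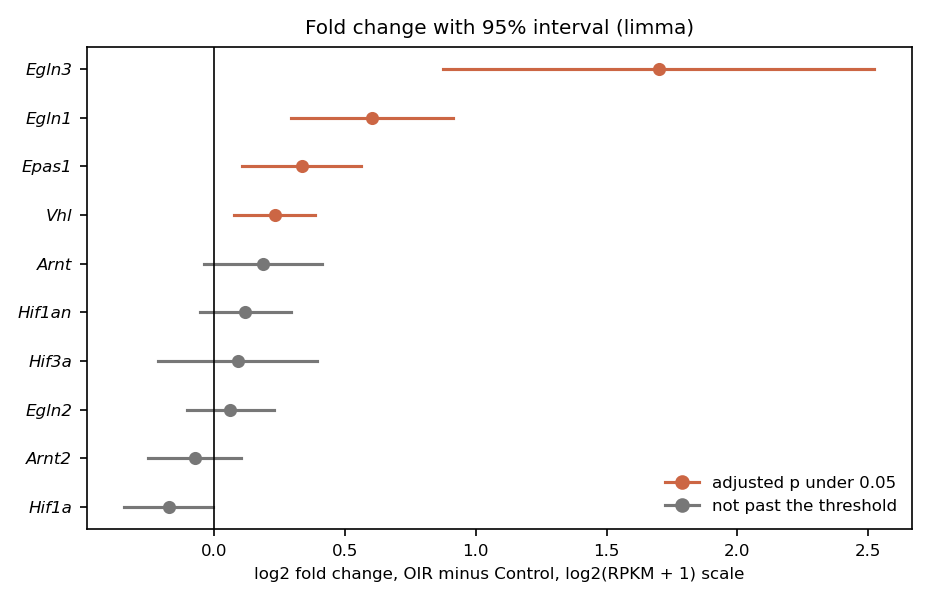
Log2 fold change of OIR minus Control on the log2(RPKM + 1) scale for the 10 genes, with the 95% interval from limma (3 libraries per group), in orange where the adjusted p was under 0.05. Egln3 is highest at 1.70 with the widest interval, and Hif1a is lowest at -0.17.

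In Control the order of the mean levels was Hif1a, Egln1, Epas1, Egln2, Hif1an, Arnt, Vhl, Arnt2, Egln3 and Hif3a. Hif1a stood 5.28 times above the next gene, and Vhl 3.28 times above Arnt2. The library ranges of Egln1 and Epas1 overlapped, as did those of Hif1an and Arnt, of Arnt and Vhl, and of Egln3 and Hif3a, so the spread across libraries does not separate these neighbours. Within each Control library, however, Egln1 was above Epas1 and Hif1an above Arnt, whereas the order of Arnt and Vhl and of Egln3 and Hif3a varied between libraries. In OIR, Egln1 and Epas1 no longer overlapped, at 36.7 to 54.4 and 32.1 to 35.9 RPKM. Egln3 came to overlap with Arnt2, at 4.37 to 10.9 and 3.93 to 4.56 RPKM, while Hif3a remained last.

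**Figure D4:**
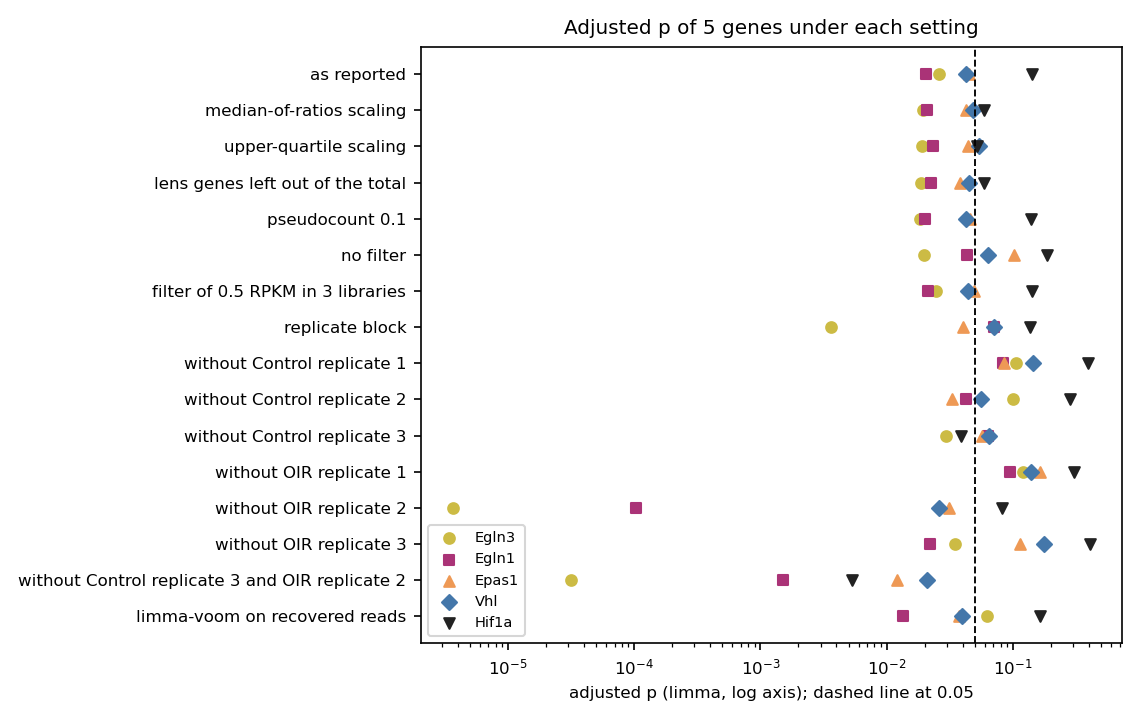
Limma adjusted p (log axis) of Egln3, Egln1, Epas1, Vhl and Hif1a as reported and under 15 alternative settings, with the threshold of 0.05 dashed. No call of these 5 genes remained without Control 1 or without OIR 1, and all 5 passed without Control 3 and OIR 2 together.

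The genes around the 10 were described by lists. Of 7 tested partners of VHL in its ligase and its activation by NEDD8, none was higher and 1 was lower. The lower share was 14.3%, against 7.22% of all tested genes, and the median over the list was -0.11 on the log2 scale. The lower gene was the scaffold gene Cul2, which fell from 10.9 ± 0.851 to 9.01 ± 0.162 RPKM (limma adjusted p 0.0424). The Cul2 call ended under 6 of the 15 alternatives, among them leaving out Control 1, Control 3, OIR 1 or OIR 3, at 0.0576 to 0.166. The count of lower partners was 2 under each of the 3 other scalings, without OIR 2 and without both lens-rich libraries. Of 18 factors known to affect HIF stability, 2 were higher, 11.1% of them against 11.6% of all tested genes, with a median of 0.04. The sirtuin gene Sirt7 rose from 11.7 ± 0.758 to 16.2 ± 0.830 RPKM (adjusted p 0.00399), and this call held under all 15 alternatives. Wsb1, which encodes a ubiquitin ligase subunit reported to target VHL, rose from 15.9 ± 0.792 to 21.5 ± 3.89 RPKM (adjusted p 0.0441), and its call ended under 9 of the 15 alternatives, at 0.0668 to 0.159.

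The list of coactivator and CITED genes held 12 tested genes, and Trp53, which is neither, was counted in it. Of the 12, 2 were higher and 1 was lower, with a median of 0.09. These are 16.7% and 8.33%, against 11.6% and 7.22% of all tested genes. CITED proteins bind the coactivators CBP and p300 that HIF needs. Cited1 was at 2.11, 2.13 and 1.65 RPKM in Control and 5.06, 3.65 and 6.70 RPKM in OIR, and rose by a log2 fold change of 1.03 (limma adjusted p 0.00752), a call that held under all 15 alternatives. Cited4 fell from 1.70 ± 0.305 to 0.957 ± 0.257 RPKM (adjusted p 0.0235), and the call ended with no filter and without Control 1, Control 3, OIR 1 or OIR 3, at 0.0604 to 0.0896. Trp53, the p53 gene, rose from 6.31 ± 0.748 to 8.67 ± 0.810 RPKM (adjusted p 0.0176), and its call ended without OIR 1 or OIR 3, at 0.0861 and 0.0591. The coactivator genes Crebbp and Ep300 themselves did not pass.

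Other dioxygenases also use oxygen. Their list mixed 2-oxoglutarate dioxygenases, the class of the EGLN enzymes, with thiol dioxygenases, a different class. Of 21 tested, 5 were higher and none was lower, with a median of 0.13. The higher share was 23.8%, against 11.6% of all tested genes. Kdm6b, a histone demethylase gene, rose from 10.3 ± 0.658 to 14.0 ± 0.535 RPKM (limma adjusted p 0.00484) and held under all 15 alternatives. The count was 1 to 5 when single libraries were left out, and 1 without Control 1, Control 3, OIR 1 or OIR 3. Jmjd6 rose from 33.9 ± 3.08 to 45.6 ± 6.13 RPKM, Kdm4b from 25.8 ± 1.31 to 32.3 ± 3.06 RPKM and Kdm3a, a known HIF target, from 20.8 ± 1.42 to 25.4 ± 1.87 RPKM, with limma adjusted p of 0.0218, 0.0221 and 0.0310. Each of these 3 calls ended with no filter and without Control 1, Control 3, OIR 1 or OIR 3, at 0.0530 to 0.145. That of Kdm3a also ended without Control 2, at 0.0682, and that of Jmjd6 with the replicate number as a block, at 0.0560. Among other genes of the bHLH-PAS family to which the HIF subunits belong, 4 of 11 could be tested and 2 were higher, with a median of 0.28. The dioxin receptor gene Ahr, whose protein also pairs with ARNT, rose from 7.72 ± 0.723 to 11.96 ± 2.41 RPKM (adjusted p 0.0223), and its repressor gene Ahrr from 1.98 ± 0.372 to 3.15 ± 0.565 RPKM (adjusted p 0.0251). With no filter and without Control 1, Control 3, OIR 1 or OIR 3 these calls ended, at 0.0531 to 0.107, and that of Ahr also without Control 2, at 0.0631.

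Of 39 tested classical HIF target genes other than Egln1 and Egln3, 25 were higher, none was lower and 14 did not pass. The higher genes were 64.1% of these targets, against 11.6% of all tested genes. Kdm3a is among the 25 as well as among the higher dioxygenase genes above. The median log2 fold change of the 39 was 0.47, against 0.03 over all tested genes. Among those with the smallest adjusted p were Ndufa4l2, Vegfa and Apln. Vegfa, the gene of the main endothelial growth factor, had 46.9, 45.0 and 45.0 RPKM in the Control libraries and 138.0, 104.5 and 143.2 RPKM in the OIR libraries. Means in Control were 4.01 RPKM for Ndufa4l2 and 1.82 RPKM for Apln. Ndufa4l2, which encodes a mitochondrial protein, was at 91.7, 65.1 and 100.6 RPKM in the OIR libraries, and Apln, the gene of the vascular peptide apelin, at 24.7, 18.7 and 34.4 RPKM. The count was 15 without OIR 1 and 16 without Control 1, and 32 without both lens-rich libraries.

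**Figure D5:**
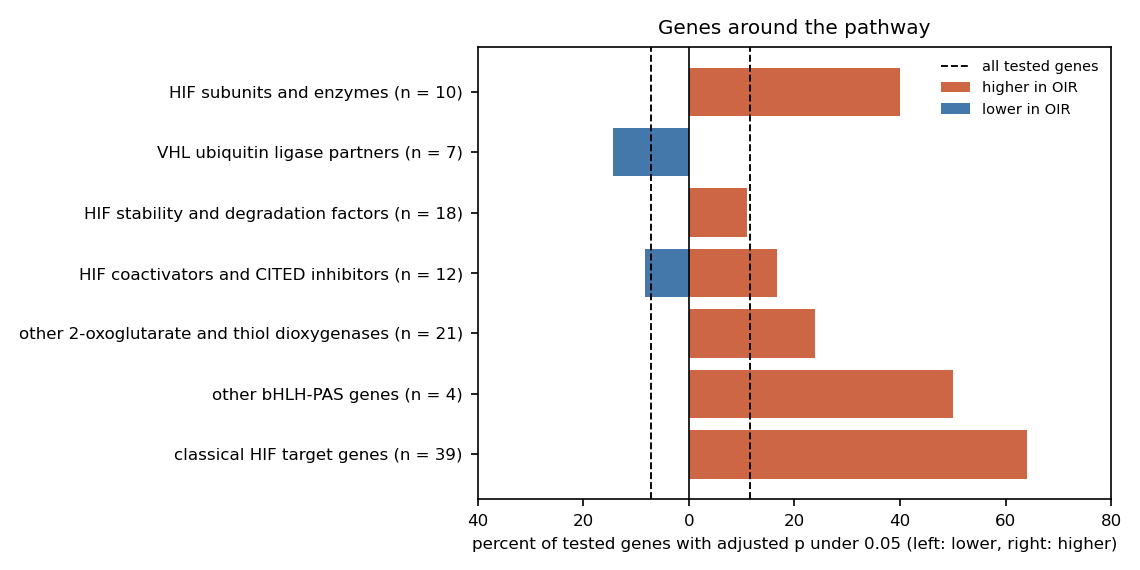
Percent of the tested genes of each list with a limma adjusted p under 0.05, higher in OIR to the right and lower to the left, with the share over all tested genes (11.6% and 7.22%) as dashed lines. The classical targets are drawn without Egln1 and Egln3, and 25 of 39 are higher, against 4 of the 10 subunit and enzyme genes.

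The OIR libraries also differed among themselves. OIR 2 was the lowest OIR library for all 4 genes that rose, for 23 of the 25 classical targets that rose and for 80.95% of all 1407 genes called higher. OIR 3 was the highest for 24 of the 25 targets, against 55.9% of the genes called higher. Some cell markers followed this order of the OIR libraries and others did not. Of those that did, Gfap, the filament gene of reactive glia, was at 61.3, 28.05 and 74.1 RPKM in OIR 1, OIR 2 and OIR 3. The haemoglobin gene Hbb-bs was at 83.6, 50.1 and 94.3 RPKM. In Control Gfap and Hbb-bs were at means of 7.25 and 33.04 RPKM. Of the 4 tested astrocyte markers, Gfap among them, 2 were higher, where 11.6% of all tested genes were. The 5 listed summed to 81.8, 49.1 and 100.4 RPKM in OIR 1, OIR 2 and OIR 3. Without Gfap, that sum was not lowest in OIR 2. The Müller glia sum was instead highest in OIR 2, at 2277, 2469 and 2394 RPKM in OIR 1, OIR 2 and OIR 3. The endothelial sum was lowest in OIR 3. All 10 tested microglia and macrophage markers were higher, and the 12 listed summed to 33.2 to 36.5 RPKM over the Control libraries and to 127.5, 94.8 and 130.4 RPKM in OIR 1, OIR 2 and OIR 3. Lower in OIR were 7 of 9 amacrine, 5 of 11 ganglion cell and 6 of 10 Müller glia markers, with 2 Müller glia markers higher. Over all tested genes, 7.22% were lower and 11.6% higher. Of 10 rod photoreceptor markers 1 was higher and none was lower. The part of these cells in the values of Egln1, Egln3, Vhl and Hif1a was not tested.

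The genes whose levels ran most like those of the 4 called genes were found by Pearson correlation of log2(RPKM + 1) over the 6 libraries, given as a description since 6 points shared by 2 groups leave many genes close to 1. For Egln3 they were Rrbp1, Ccnd1 and Arpin (0.999, 0.998 and 0.998), and for Egln1 Hbb-bt, Pfkl and Tatdn3 (0.999, 0.999 and 0.998). For Epas1 they were Sall2, Socs7 and Zfp865 (0.999, 0.997 and 0.997), and for Vhl Tyro3, Hebp1 and Lrp10 (0.996, 0.995 and 0.995). The mean of Ccnd1, a cyclin gene, was 9.41 RPKM in Control libraries and 16.5 RPKM in OIR libraries, and that of Pfkl, a glycolysis gene on the target list, was 119.9 and 172.6 RPKM.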

How the data were processed

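RNA sequencing libraries of mouse retina, 3 Control and 3 OIR, were grouped and numbered by the sample titles. The authors deposited 1 RPKM value per gene symbol and library, as the values show, since the headers give no unit. Per the submitters' processing notes, TopHat2 2.0.12 and Bowtie2 2.0.6 are the tools listed. The sources used here do not give the genome build, annotation, counting program, strand or treatment of shared reads, and the labels' library protocol describes another species. The RefSeq table places non-coding genes over Hif1a, Arnt2 and Egln1, whose reads could be counted with them.

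Values were used as deposited. Whole reads were recovered, within 0.02 of a read, for 17952 of the 17953 genes above 0 in any library, with the absolute depth set by GENCODE M21 transcript lengths through 112 genes.

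Groups were compared two-sided on log2(RPKM + 1) with limma (3.58.1, R 4.3.3; robust, with a mean trend) and no covariate, leaving 4 residual degrees of freedom. This scale understates the change of low genes such as Egln3. Ratios between genes used no pseudocount and an exact permutation test (SciPy 1.17.1). The limma fit was run on simulated data with known changes and independent normal noise. It recovered 40.3% of 1.25-fold, 92.5% of 1.5-fold and 93.9% of 2-fold changes, where the fold is of RPKM + 1. The simulation changed 67, 67 and 66 genes by these folds, far fewer than were called here. Its rates therefore need not hold for the real comparison. A gene that did not pass may still differ by a small fold. Named genes are the 10 genes, from each list up to 4 with the smallest adjusted p past the threshold, the 3 most correlated genes per called gene (predicted, unnamed and sex-linked genes passed over), and 1 set marker per cell type. Genes and lists were chosen with earlier results of these data known. Tet2, the fifth dioxygenase gene that was higher, and Crebbp and Ep300 fell outside the rule and are named after their values were seen. Alternatives were 3 scalings, a pseudocount of 0.1, other filters, the replicate number as a block, leaving out libraries and limma-voom on the recovered reads. Some items the rule names are not reported here.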

Additional observations from a re-analysis of the deposited data

How the results depend on the processing

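Over the 15 alternatives each of the 4 genes that rose stayed higher in direction. Of the 10 genes 4 were called higher as reported, 2 with no filter (Egln3 and Egln1), and 0 to 4 when single libraries were left out, with 0 without Control 1 or OIR 1. Calls over all 12112 genes fell as well, from 1407 higher as reported to 658 without Control 1 and 513 without OIR 1. With no filter 1209 of 17953 genes were higher. Hif1a was called lower without Control 3 and without both lens-rich libraries, 1 gene in each case, against 0 as reported, and leaving out single libraries gave 0 to 1. Over all 12112 genes, 1070 were lower without Control 3 and 1943 without both lens-rich libraries, against 875 as reported.

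Over all tested genes, 1407 were higher and 875 lower. Leaving out single libraries gave 513 to 1754 higher and 212 to 1293 lower. Without both lens-rich libraries 2094 were higher. There were 1356 lower with upper-quartile scaling, 529 with no filter and 1943 without both lens-rich libraries. By limma-voom on the recovered reads, 1451 were higher and 984 lower. Higher genes made up 61.7% of the calls as deposited, 49.4% with median-of-ratios scaling, 47.6% with upper-quartile scaling and 51.4% with the lens genes left out of the total. These scalings moved the median log2 fold change of all genes from 0.03 to between -0.01 and 0.00009. Of the Hif3a estimates, 3 of 15 had the other sign, and none passed.

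No pairing of the libraries by replicate number was seen. The lens-rich Control 3 and OIR 2 correlated at 0.49 in this check, so a smaller effect shared by same-numbered libraries could have been missed. Same-numbered libraries' deviations from their group means correlated at 0.22, -0.44 and -0.41, and 0 of 6 libraries correlated best with their own number. With the replicate number as a block, 2 of the 10 genes were higher, Egln3 and Epas1 (limma adjusted p 0.00363 and 0.0406), and Egln1 and Vhl were at 0.0714 and 0.0711. Over all 12112 genes, 1222 were higher with this block.

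Between 154 and 429 reads lay behind each Egln3 value in Control and each Hif3a value, the fewest among the 10 genes.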
